A study of Mus musculus with 4 samples.

Results

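The cytosolic ribosome is built from a large and a small subunit, each an assembly of ribosomal RNA and many small proteins. The genes described here are the mouse genes that encode those proteins and carry a systematic name, that is Rpl or Rps with a number and at most 1 trailing a or x, together with Rplp0, Rplp1, Rplp2, Rpsa and Rps3a1, as annotated protein-coding in GENCODE M21. By this rule 77 genes were taken of 55401 in the count table, 46 of the large and 31 of the small subunit. The rule itself uses no expression value, but it was chosen with earlier results of these data known. RNA came from R1 mouse embryonic stem cells in 2 groups of 2 libraries, one labelled Usp28 KO and the other, labelled CTL, of wild-type genotype. Usp28 encodes a deubiquitinating enzyme. Cells of both groups were kept on 0.2% gelatin in N2B27 medium with LIF at 10 ng/ml and a pair of kinase inhibitors, PD0325901 at 1 μM against MEK and CHIR99021 at 3 μM against GSK3, which together make up 2i/LIF medium. The labels name no clone and do not state whether 2 libraries with 1 label were separate cultures, so their spread may be technical.

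Ribosomal proteins are made in nearly equal numbers, are imported into the nucleolus to be assembled with ribosomal RNA, and are degraded when they fail to find a partner. Their mRNAs are among the most abundant of a growing cell and begin with an oligopyrimidine stretch (the TOP motif), through which mTOR signalling and the RNA-binding protein Larp1 control their translation. Pluripotent stem cells are known for high transcription of this machinery and comparatively restrained protein synthesis. The mouse genome also holds many processed pseudogenes of these genes, which short reads cannot always tell from the parent.

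The libraries held between 16595196 and 19533608 counts assigned to genes. Levels are given as counts per 1000000 (CPM), with library totals scaled by TMM factors, which align the bulk of genes between libraries. The 5 embryonic stem cell markers (Pou5f1, Nanog, Sox2, Esrrb and Zfp42) summed to 3109.8 and 3369 CPM in the Usp28 KO libraries, against 3526 and 3538 CPM in the CTL libraries. Markers of other cells were low. Those of fibroblasts summed to 1.02 and 1.07 CPM in the Usp28 KO libraries, against 0.563 and 1.07 CPM in the CTL libraries, with 3 of 7 at 0 in all 4. Those of extraembryonic endoderm summed to 11.3 and 11.5 CPM in the Usp28 KO libraries, against 10.5 and 7.44 CPM in the CTL libraries. Those of trophoblast summed to 12.8 and 20.5 CPM in the Usp28 KO libraries, against 12.9 and 19.3 CPM in the CTL libraries, nearly all from Eomes. Their part in the results was not tested. Usp28 itself had 181 and 177 CPM in the Usp28 KO libraries, against 189 and 197 CPM in the CTL libraries, a log2 fold change of -0.11 ± 0.15 (adjusted p = 0.857, edgeR's quasi-likelihood test). A count summed over the whole gene does not see a small frameshift, so this level does not check the knockout label, and each direction below is between the libraries as labelled. The ± of each log2 fold change is a standard error, computed from the fold change and the F statistic of edgeR's test.

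Ribosomal protein mRNAs made up, as a share of all counts, 6.12% and 4.95% in the Usp28 KO libraries, against 5.18% and 4.21% in the CTL libraries. The group means were 5.54 ± 0.825% in Usp28 KO and 4.69 ± 0.686% in CTL (SD, n = 2 each), and the groups overlapped: CTL replicate 1 was above Usp28 KO replicate 2. The large subunit took 3.55% and 2.90% in the Usp28 KO libraries, against 3.03% and 2.44% in the CTL libraries. The small subunit took 2.57% and 2.05% in the Usp28 KO libraries, against 2.15% and 1.77% in the CTL libraries. Both subunits therefore had the same order of libraries, with Usp28 KO replicate 1 highest, CTL replicate 1 next, then Usp28 KO replicate 2, and CTL replicate 2 lowest. Transcripts of the mitochondrial genome stood in the reverse order, at 1.92% and 3.33% in the Usp28 KO libraries, against 2.77% and 5.65% in the CTL libraries. Mitochondrial transcripts share the total with the ribosomal protein counts. With them taken out of the total the ribosomal protein share was 6.24% and 5.12% in the Usp28 KO libraries, against 5.33% and 4.46% in the CTL libraries, again in the same order, and any other part of mitochondrial RNA in the result was not tested. Since the 4 libraries are bulk RNA, more RNA per gene and a different mixture of cells cannot be told apart.

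**Figure D1:**
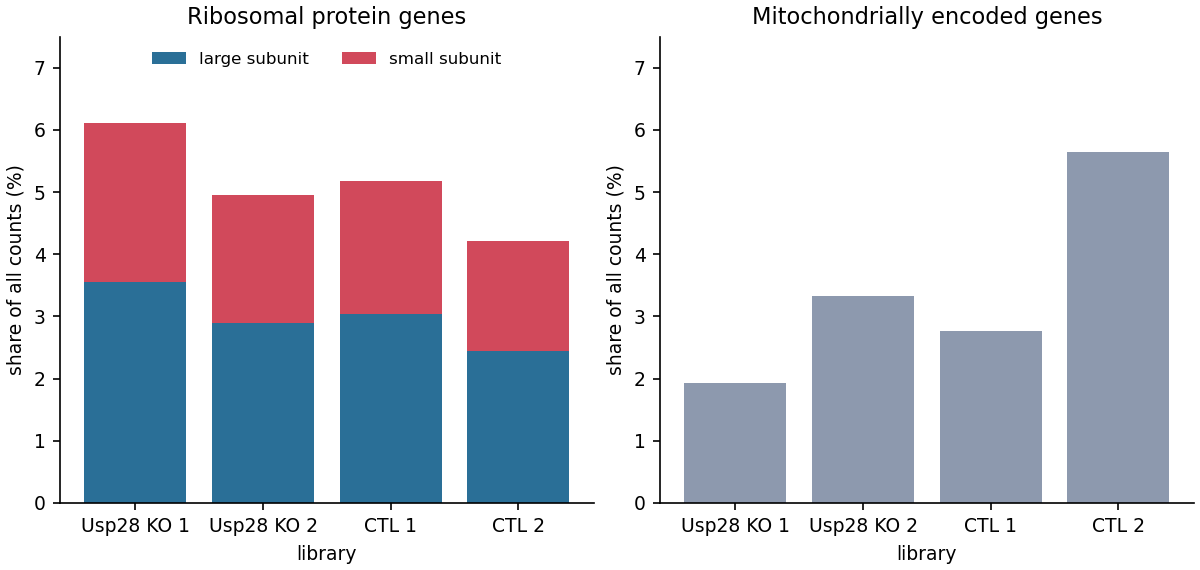
Share of all counts on ribosomal protein genes of the large and small subunit, and on mitochondrial genes, in percent of the library, for the 2 Usp28 KO libraries (left) and the 2 CTL libraries (right); each bar is 1 library. Usp28 KO replicate 1 is highest for both subunits and CTL replicate 2 lowest, and the mitochondrial share runs the other way, with 1.92% in Usp28 KO replicate 1 and 5.65% in CTL replicate 2.

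Gene by gene, most ribosomal protein mRNAs were slightly higher in the Usp28 KO libraries. None passed the test when all 4 libraries were fitted with low counts filtered out and without a replicate block. The log2 fold change (Usp28 KO minus CTL) was above 0 in 69 of 77 genes (89.6%), against 49.4% of the 15341 genes tested. The median was 0.18 over the 77 genes and -0.0040 over all genes tested. By edgeR's quasi-likelihood test with Benjamini-Hochberg adjustment over all genes tested, 0 of 77 were called higher and 0 lower, where 0% of all genes were called in either direction. At an unadjusted p under 0.05 edgeR gave 2 genes higher, Rps28 and Rps29, where 6.86% of all genes were higher, and 0 lower, where 4.34% were. DESeq2 called 0 of 77 either way, and gave Rpl24 no adjusted p. Of the 12961 genes with a DESeq2 adjusted p, 0.687% were called higher and 0.393% lower. By limma-voom 0 of 77 were called. Both Usp28 KO libraries were above both CTL libraries in 12 genes (15.6%), against 21.4% of all genes, and below both in 0, against 20.4%. The remaining 65 genes had groups that overlapped.

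The size of the median changed with the library that was left out. It was 0.0089 for the large and -0.022 for the small subunit without Usp28 KO replicate 1, and 0.079 and 0.057 without CTL replicate 2. Without Usp28 KO replicate 2 it was 0.33 for the large and 0.42 for the small subunit. Without CTL replicate 1 it was 0.33 and 0.42. Leaving out 1 library also unbalances the replicate numbers. The weight of a single library and a difference shared by same-numbered libraries therefore cannot be told apart. Set library against library, over the 76 genes with at least 5 CPM, the median log2 ratio of Usp28 KO replicate 1 was 0.23 over CTL replicate 1 and 0.55 over CTL replicate 2, with 66 and 70 genes higher. That of Usp28 KO replicate 2 was -0.15 over CTL replicate 1 and 0.16 over CTL replicate 2, with 19 and 66 genes higher. Against the mean of the 4 libraries the median gene stood at 0.28 in Usp28 KO replicate 1 and -0.092 in Usp28 KO replicate 2, and at 0.056 in CTL replicate 1 and -0.25 in CTL replicate 2 (log2). Of these genes 58 of 76 were highest in Usp28 KO replicate 1 and 62 lowest in CTL replicate 2.

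**Figure D2:**
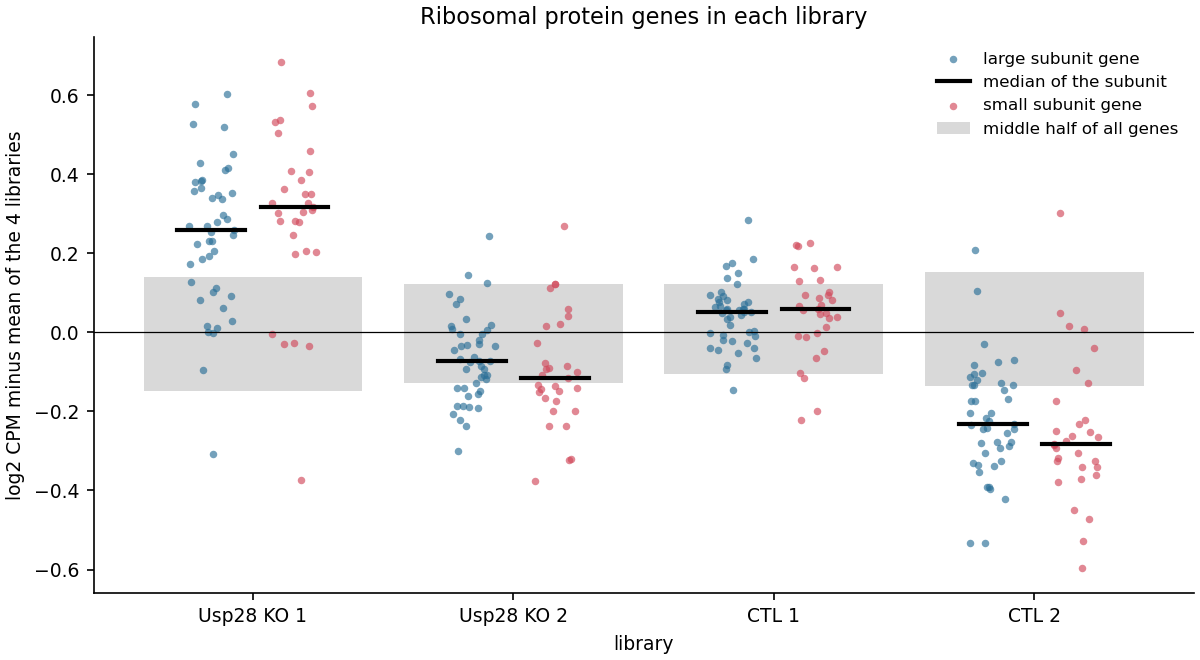
Level of each ribosomal protein gene with at least 5 CPM in each library, as log2 difference from its mean over the 4 libraries, for Usp28 KO (left) and CTL (right), by subunit; each point is 1 gene, black lines are subunit medians and the grey band spans the quartiles of all genes. The median gene lies at 0.28 and -0.092 in the Usp28 KO libraries, against 0.056 and -0.25 in the CTL libraries.

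Small subunit proteins decode the mRNA, and those of its head shape the channel through which mRNA and transfer RNA move. The largest log2 fold change of the set and its 2 smallest p values were here. Rps28, a protein of the head beside the channel where mRNA leaves (gene at chromosome 17, 33819027 to 33824562, mm10), had 427 and 362 CPM in the Usp28 KO libraries, against 285 and 277 CPM in the CTL libraries. Its groups were well apart, with a log2 fold change of 0.49 ± 0.17 (unadjusted p = 0.0113, adjusted p = 0.296, edgeR). Rps29, a zinc-binding protein of the head (chromosome 12, 69157722 to 69159186), had 368 and 213 CPM in the Usp28 KO libraries, against 222 and 159 CPM in the CTL libraries. Usp28 KO replicate 1 stood alone at the top and the groups overlapped, CTL replicate 1 being above Usp28 KO replicate 2, and the log2 fold change was 0.61 ± 0.26 (unadjusted p = 0.0376, adjusted p = 0.410, edgeR). Without Usp28 KO replicate 2, Rps29 passed the edgeR test at a log2 fold change of 0.96, and without Usp28 KO replicate 1 the value was 0.16. Rps20, which binds ribosomal RNA in the head, had 858 and 723 CPM in the Usp28 KO libraries, against 639.6 and 582 CPM in the CTL libraries. Here too the groups did not overlap (log2 fold change 0.37 ± 0.17, adjusted p = 0.459). Rps19, the head protein whose gene is the one most often mutated in human Diamond-Blackfan anaemia, had 624 and 389 CPM in the Usp28 KO libraries, against 428 and 334 CPM in the CTL libraries, with groups that overlapped (log2 fold change 0.41 ± 0.22, adjusted p = 0.540). Over the 14 head proteins the median log2 fold change was 0.28, 13 of 14 were above 0, and Rps28 and Rps20 were the 2 whose groups did not overlap (14.3%, against 21.4% of all genes). Leaving out 1 library moved these values: Rps19 was at 0.031 without Usp28 KO replicate 1, 0.72 without Usp28 KO replicate 2, 0.60 without CTL replicate 1 and 0.24 without CTL replicate 2, and Rps20 was at 0.24 without Usp28 KO replicate 1, 0.50 without Usp28 KO replicate 2, 0.44 without CTL replicate 1 and 0.30 without CTL replicate 2.

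Other small subunit proteins named here had log2 fold changes from 0.014 (Rps6) to 0.37 (Rps14), apart from Rps10 and Rps26, which were below 0. Rps2 and Rps3 line the entry of the mRNA channel. Rps2 had 1569 and 1149 CPM in the Usp28 KO libraries, against 1264 and 1011 CPM in the CTL libraries, and Rps3 had 1277 and 892 CPM in the Usp28 KO libraries, against 1038 and 772 CPM in the CTL libraries. In both, the libraries followed the order of the whole share and the groups overlapped (log2 fold changes 0.26 ± 0.20 and 0.26 ± 0.22). Rps14, the gene whose loss of a copy underlies the anaemia of the human 5q- syndrome, spread more than its neighbours, with 746 and 416 CPM in the Usp28 KO libraries, against 574 and 325 CPM in the CTL libraries. Its difference between replicates exceeded that between groups (log2 fold change 0.37 ± 0.33, adjusted p = 0.735). Rpsa, which stabilises the body of the subunit near the exit of the mRNA channel and whose protein is also known as a laminin receptor, had 2431 and 2633 CPM in the Usp28 KO libraries, against 2421 and 2282 CPM in the CTL libraries. Both Usp28 KO libraries were above both CTL libraries by a small margin (log2 fold change 0.11 ± 0.18). Rps6, the main ribosomal substrate of the S6 kinases, had 1139.9 and 1195 CPM in the Usp28 KO libraries, against 1111 and 1201 CPM in the CTL libraries, with no order between the groups and a log2 fold change of 0.014 ± 0.17. The X-linked Rps4x had 1291 and 1035 CPM in the Usp28 KO libraries, against 1152 and 1025 CPM in the CTL libraries, a log2 fold change of 0.10 ± 0.18, and Rps3a1 had 650.4 and 724 CPM in the Usp28 KO libraries, against 619.6 and 674 CPM in the CTL libraries, a log2 fold change of 0.088 ± 0.17. Rps15, a protein of the head near the decoding site and the small subunit mRNA with the highest level per length, had 1009.6 and 803 CPM in the Usp28 KO libraries, against 878 and 629 CPM in the CTL libraries, a log2 fold change of 0.27 ± 0.20 with groups that overlapped.

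In the large subunit the proteins of the P stalk, which recruits the elongation factors, had the highest median of the role groups at 0.32 (4 genes, all above 0, all with overlapping groups). Rplp2, an acidic protein that pairs with Rplp1 on the stalk (chromosome 7, 141447370 to 141451585), had 610.3 and 368 CPM in the Usp28 KO libraries, against 418 and 278 CPM in the CTL libraries. Usp28 KO replicate 1 was far above the rest, but CTL replicate 1 was above Usp28 KO replicate 2 (log2 fold change 0.49 ± 0.26, adjusted p = 0.531, edgeR). Rplp1 had 1049 and 739 CPM in the Usp28 KO libraries, against 800.3 and 594 CPM in the CTL libraries, again in the same order of libraries (log2 fold change 0.36 ± 0.21, adjusted p = 0.577). Rpl12, at the base of the stalk, had 968 and 721 CPM in the Usp28 KO libraries, against 790.4 and 600.2 CPM in the CTL libraries (log2 fold change 0.28 ± 0.20). Rplp0, the scaffold that carries the acidic proteins, had the smallest difference of the group, with 978 and 887 CPM in the Usp28 KO libraries, against 967 and 803 CPM in the CTL libraries (log2 fold change 0.076 ± 0.18). Rpl5 and Rpl11 join 5S ribosomal RNA in a particle that docks on the large subunit and, when free, binds the p53 ligase Mdm2. Rpl5 had 1515 and 1341 CPM in the Usp28 KO libraries, against 1344 and 1197 CPM in the CTL libraries and a log2 fold change of 0.17 ± 0.18. Rpl11 had 592 and 422 CPM in the Usp28 KO libraries, against 476 and 361 CPM in the CTL libraries and a log2 fold change of 0.28 ± 0.20. The CTL and Usp28 KO libraries interleaved for both. The stalk values also changed with the library that was left out. Rplp2 was at 0.081 without Usp28 KO replicate 1 and 0.82 without Usp28 KO replicate 2. Without CTL replicate 1 it was at 0.82, and without CTL replicate 2 at 0.23. Rplp1 was at 0.084 without Usp28 KO replicate 1 and 0.59 without Usp28 KO replicate 2. Without CTL replicate 1 it was at 0.59, and without CTL replicate 2 at 0.16.

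The tunnel through which the nascent chain leaves is lined or ringed by 9 of the proteins. Their median log2 fold change was 0.21, and 8 were above 0. In 4 of the 9 (44.4%, against 21.4% of all genes) both Usp28 KO libraries were above both CTL libraries: Rpl4, Rpl17, Rpl26 and Rpl31. Rpl26, at the mouth of the tunnel, had 742 and 567 CPM in the Usp28 KO libraries, against 562 and 477 CPM in the CTL libraries (log2 fold change 0.33 ± 0.19, adjusted p = 0.552). Rpl4, whose long loop forms part of the tunnel wall and whose mRNA was the most abundant of the whole set in CPM, had 2791 and 2935 CPM in the Usp28 KO libraries, against 2646 and 2712 CPM in the CTL libraries, a small but non-overlapping difference (log2 fold change 0.10 ± 0.18). Rpl39, a very short protein inside the tunnel, had 205 and 123 CPM in the Usp28 KO libraries, against 142 and 118 CPM in the CTL libraries (log2 fold change 0.34 ± 0.22); Usp28 KO replicate 1 alone stood apart. Outside this group Rpl36, another large subunit protein, had 504 and 311 CPM in the Usp28 KO libraries, against 355 and 233 CPM in the CTL libraries (log2 fold change 0.47 ± 0.26, adjusted p = 0.546), and its groups overlapped. Leaving out 1 library, Rpl36 was at 0.080 without Usp28 KO replicate 1, 0.78 without Usp28 KO replicate 2, 0.80 without CTL replicate 1 and 0.20 without CTL replicate 2, and Rpl26 was at 0.12 without Usp28 KO replicate 1, 0.52 without Usp28 KO replicate 2, 0.46 without CTL replicate 1 and 0.22 without CTL replicate 2.

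Around the peptidyl transferase centre, where the peptide bond forms, the differences were within the spread between replicates. Rpl3 had 1060.4 and 739 CPM in the Usp28 KO libraries, against 872 and 672 CPM in the CTL libraries, and Rpl10, which joins late in maturation, had 791 and 609 CPM in the Usp28 KO libraries, against 719 and 598 CPM in the CTL libraries (log2 fold changes 0.22 ± 0.21 and 0.087 ± 0.19). Rpl8, which reaches towards the same centre, had 1699 and 1254 CPM in the Usp28 KO libraries, against 1501 and 997 CPM in the CTL libraries (log2 fold change 0.24 ± 0.23). Rpl10a, of the L1 stalk that guides spent transfer RNA out, had 971 and 964 CPM in the Usp28 KO libraries, against 1003 and 875 CPM in the CTL libraries (log2 fold change 0.043 ± 0.17). Rpl41, a peptide at the interface of the subunits, had 924 and 872 CPM in the Usp28 KO libraries, against 931 and 753 CPM in the CTL libraries (log2 fold change 0.093 ± 0.18). With library offsets for transcript GC content, Rpl10a turned to -0.057, Rpl41 to -0.043, Rpl29 to -0.061 and Rps6 to -0.014, and with offsets for exon length Rpl10a, Rplp0 and Rps6 turned to -0.027, -0.0043 and -0.065. Only 8 of the 77 genes were below 0 in the Usp28 KO libraries: Rpl24 (-0.38), Rps10 (-0.10), Rps26 (-0.091), Rpl13a (-0.072), Rpl21 (-0.071), Rpl35 (-0.040), Rpl15 (-0.027) and Rps24 (-0.0078). In none of these did the groups separate.

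**Figure D3:**
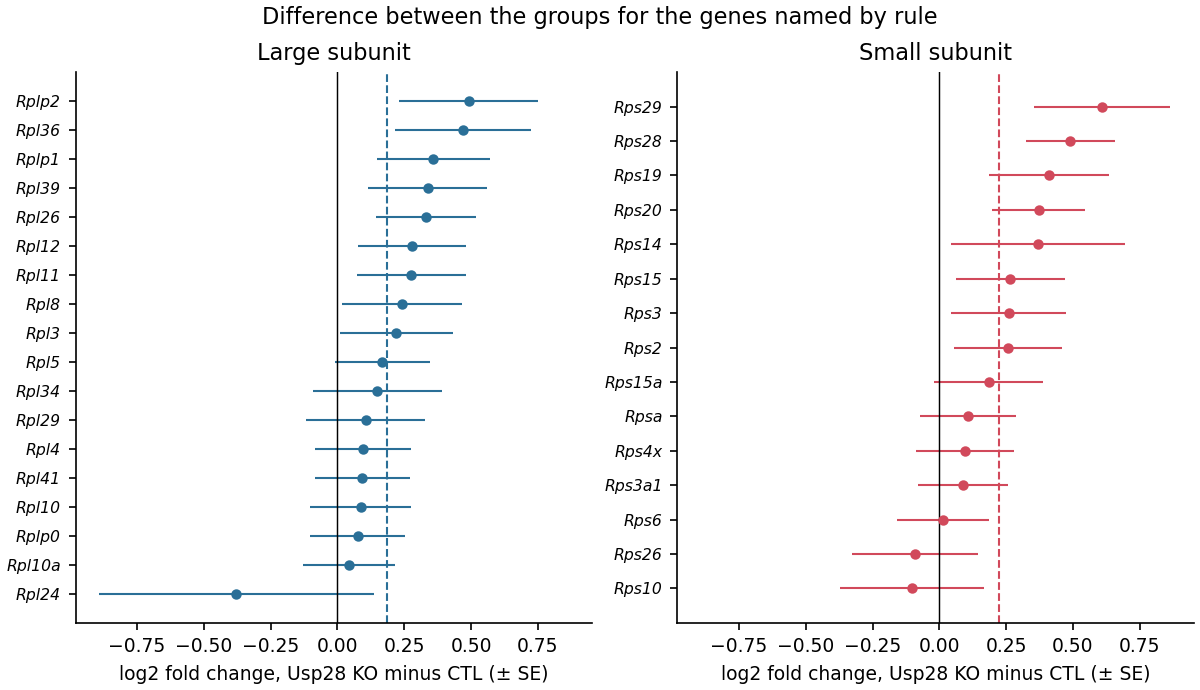
Log2 fold change of the 33 ribosomal protein genes named by rule in Usp28 KO over CTL, ordered by value within each subunit. Bars are standard errors computed from the fold change and edgeR's F statistic, with n = 2 libraries per group. Dashed lines are the medians of all genes of the subunit. Values run from -0.38 (Rpl24) to 0.61 (Rps29), most lie just above 0, and no gene passed the adjusted threshold.

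Large and small subunit genes gave close values. The median log2 fold change was 0.18 over the 46 large subunit genes (range -0.38 to 0.49) and 0.22 over the 31 small subunit genes (range -0.10 to 0.61), where Rps28 and Rps29 gave the highest end. Counts on large over small subunit genes stood at 1.38 and 1.41 in the Usp28 KO libraries, against 1.41 and 1.38 in the CTL libraries. The means were 1.40 ± 0.0200 in Usp28 KO and 1.40 ± 0.0214 in CTL (SD, n = 2 each), so the groups differed by less than the spread between replicates. The difference of the subunit medians, large minus small, was -0.039, and turned to 0.0075 with GC offsets. Those offsets also lowered both medians, to 0.13 and 0.13 (all genes -0.036), and exon length offsets gave 0.12 and 0.15 (all genes -0.042). Both subunit medians were above 0 under each of the other scalings tried (DESeq2 size factors, upper quartile, library totals, and factors computed without ribosomal and mitochondrial genes). Among the 12 genes with non-overlapping groups, 9 were of the large subunit (among them Rpl4, Rpl17, Rpl26 and Rpl31) and 3 of the small (Rpsa, Rps20 and Rps28). These are 19.6% of the large and 9.68% of the small subunit genes, both below the 21.4% of all genes.

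Differences between the 2 replicates of a group were larger than those between the groups. In Usp28 KO the median log2 difference of replicate 2 minus replicate 1 was -0.39 over 76 genes, with 64 lower in replicate 2 (84.2%, against 50.2% of all genes). In CTL it was -0.31, with 69 lower in replicate 2 (90.8%, against 49.3% of all genes). The labels do not state whether libraries with the same number share a day or batch.

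Of these 76 genes 64 were lower in replicate 2 of both groups, and 7 were higher in it: Rpl4, Rpl21, Rpl35, Rps3a1, Rps6, Rps24 and Rps26. Rps26, which contacts the mRNA just upstream of the start codon, went furthest against the others. It had 898 and 1401 CPM in the Usp28 KO libraries, against 1013 and 1434 CPM in the CTL libraries, so both second replicates were above both first ones, and the log2 fold change between groups was -0.091 ± 0.24 (adjusted p = 0.933, edgeR). Rpl35, which sits at the mouth of the exit tunnel, had 480.3 and 703 CPM in the Usp28 KO libraries, against 578 and 639 CPM in the CTL libraries, again with both second replicates above both first ones. Rpl21, a large subunit protein, had 143 and 156 CPM in the Usp28 KO libraries, against 138 and 177 CPM in the CTL libraries. The replicate with the highest ribosomal protein share in each group was thus the lower one for these genes. The place of Rps3a1 among them is uncertain, since near-identical copies (described below) held 46.7% of its joint counts. Those copies had 12042 and 9472 unscaled counts in the Usp28 KO libraries, against 12809 and 8149 in the CTL libraries. Across the 76 genes the log2 fold change between groups had a Spearman rho of -0.363 with transcript length and 0.153 with GC content, where over 10701 genes the values were -0.126 and 0.334. The length offsets above used exon length, which had a Spearman rho of -0.068 over the 76 genes, and no fit used transcript length. The part of length and GC content in the differences between libraries was not tested beyond those offsets.

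**Figure D4:**
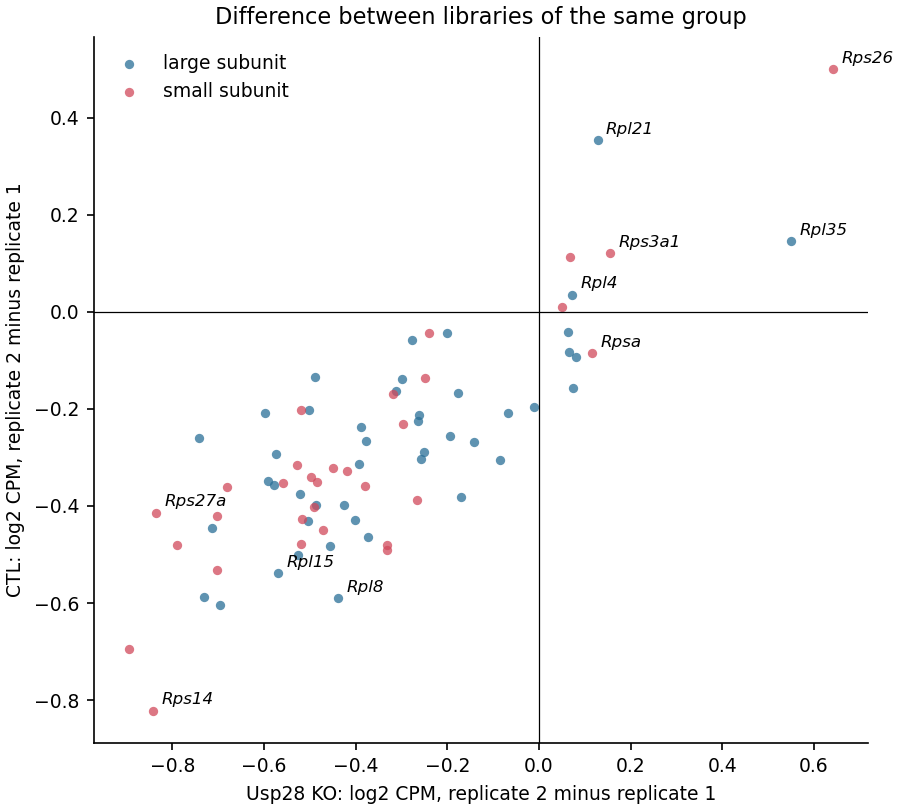
Log2 difference of replicate 2 minus replicate 1 for each ribosomal protein gene with at least 5 CPM, in Usp28 KO and in CTL; each point is 1 gene, by subunit. Most genes lie where both are below 0 and Rps26 stands at the opposite end, at 0.64 in Usp28 KO and 0.50 in CTL.

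Promoter sequences are shown for the 4 genes with the smallest p values of each subunit, as far as they had an entry, and for 3 of the genes that were higher in replicate 2 of both groups, because a pyrimidine stretch at the start of transcription is the feature that defines TOP mRNAs. RefSeq start sites on GRCm38.p6 within 1000 bases of the GENCODE start were available for 57 of the 77 genes. Each line gives 50 bases before and 30 bases from the RefSeq start, 5′ to 3′ on the gene's strand, with the longest run of C and T in capitals.
Rps28: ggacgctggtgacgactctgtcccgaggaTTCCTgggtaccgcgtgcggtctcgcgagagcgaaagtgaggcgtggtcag
Rps19: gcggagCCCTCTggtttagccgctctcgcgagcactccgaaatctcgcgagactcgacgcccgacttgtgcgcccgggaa
Rplp2: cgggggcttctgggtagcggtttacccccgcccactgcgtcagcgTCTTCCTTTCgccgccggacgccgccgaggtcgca
Rpl26: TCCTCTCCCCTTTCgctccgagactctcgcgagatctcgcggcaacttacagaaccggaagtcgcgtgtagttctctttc
Rps26: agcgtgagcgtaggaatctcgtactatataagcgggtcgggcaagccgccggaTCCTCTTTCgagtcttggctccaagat
Rpl35: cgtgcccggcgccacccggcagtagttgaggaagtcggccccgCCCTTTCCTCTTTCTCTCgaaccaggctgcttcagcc
Rpl4: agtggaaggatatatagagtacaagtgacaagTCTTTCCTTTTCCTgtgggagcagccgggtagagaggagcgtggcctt
The windows are chr17:33824533-33824612 (- strand) for Rps28, chr7:24884542-24884621 (+ strand) for Rps19, chr7:141447601-141447680 (+ strand) for Rplp2, chr11:68901516-68901595 (+ strand) for Rpl26, chr10:128626477-128626556 (- strand) for Rps26, chr2:39005102-39005181 (- strand) for Rpl35 and chr9:64173337-64173416 (+ strand) for Rpl4. Among the genes with the smallest p, the longest run had 5 bases in Rps28, 6 in Rps19, 10 in Rplp2 and 14 in Rpl26. Among those higher in replicate 2, it had 14 in Rpl4, 9 in Rps26, 18 in Rpl35, 5 in Rps3a1, 10 in Rps6 and 19 in Rps24. Counted from the RefSeq start, the run lay wholly upstream in Rps28 (-21 to -17), Rps19 (-44 to -39), Rpl26 (-50 to -37, where the window begins) and Rpl4 (-18 to -5). It crossed the start in Rplp2 and Rpl35 and lay just after it in Rps26. The RefSeq start was 221, 281, 241 and 493 bases from the GENCODE start in Rps19, Rplp2, Rps26 and Rpl35. The true start is not known from these tables for any of them, so a run shown here is not shown to be a TOP motif.

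A run of at least 10 pyrimidines in this window was found in 27 of 57 promoters of ribosomal protein genes (47.4%), against 14.4% of all 15154 promoters. It was present in 20 of 34 large subunit and 7 of 23 small subunit promoters. Short motifs were searched on both strands of the 300 bases around the start (250 before, 50 after). TCTTTC was in 24 of 57 promoters of ribosomal protein genes (42.1%), against 19.4% of all 15154 promoters. CTTTCC, which shares CTTTC with TCTTTC, was in 29 of 57 promoters of ribosomal protein genes (50.9%), against 26.6% of all 15154 promoters. The Ets-type motif CCGGAAG was in 23 of 57 promoters of ribosomal protein genes (40.4%), against 13.2% of all 15154 promoters. The E-box CACGTG was in 5 of 57 promoters of ribosomal protein genes (8.77%), against 8.51% of all 15154 promoters. AAGATGGC was in 4 of 57 promoters of ribosomal protein genes (7.02%), against 3.48% of all 15154 promoters. A match is a description of these letters and not a site.

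Levels per length ranged widely within the set, although the proteins are needed in nearly equal numbers. In CPM per kilobase of annotated exon (RPKM), the mean over the 4 libraries ran from 0.809 to 1594, with a median of 326, 327 for the large and 326 for the small subunit. Rplp1 was highest with 2102 and 1481 RPKM in the Usp28 KO libraries, against 1604 and 1190.0 RPKM in the CTL libraries. After it came Rpl4 (mean 1381 RPKM), Rps15 (1317 RPKM) and Rpl8 (1003 RPKM). Each of these overlapped with its neighbour in the order over the 4 libraries. At the low end stood Rpl24, with 16 and 11 counts in the Usp28 KO libraries, against 16 and 17 counts in the CTL libraries, and Rps10, with 160 and 112 counts in the Usp28 KO libraries, against 163 and 115 counts in the CTL libraries. Rpl34 (mean 8.21 RPKM) and Rpl29 (18.8 RPKM) were the next lowest of the large subunit, and Rps15a (46.5 RPKM) and Rps19 (94.7 RPKM) of the small. The exon length of a gene sums every annotated isoform, and ranking by the longest coding transcript in its place gave a Spearman rho of 0.857 with this order and changed who came first.

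Several of the low values stood beside near-identical copies with high counts. Annotated genes elsewhere in the genome that share at least 20% of the 50-base words of the principal transcript were found for 62 of the 77 genes, 275 copies in all. In 11 genes the copies held more than 25% of the counts of the gene and its copies together, and in 5 more than 50%: Rps10 (97.8%), Rpl34 (86.6%), Rpl29 (80.3%), Rpl24 (74.0%) and Rpl30 (71.0%). Rps10, a head protein, is the clearest case. Its copy Rps10-ps2 had 5122 and 7112 counts in the Usp28 KO libraries, against 6222 and 5765 counts in the CTL libraries, many times the counts of Rps10 itself. Rpl34-ps1 had 3646 and 1879 counts in the Usp28 KO libraries, against 3212 and 1543 counts in the CTL libraries. For Rpl24 the copies were low as well. They summed to 59 and 37 counts in the Usp28 KO libraries, against 41 and 34 counts in the CTL libraries. For Rpl3, Rplp0, Rps3a1 and Rps7 the copies held 43.7%, 43.1%, 46.7% and 43.9%. Rpl3-ps1 had 14865 and 10433 counts in the Usp28 KO libraries, against 13898 and 7568 counts in the CTL libraries, and Gm8730, a copy of Rplp0, had 13193 and 9589 counts in the Usp28 KO libraries, against 12648 and 6871 counts in the CTL libraries. In unscaled counts Rpl34-ps1, Rpl3-ps1 and Gm8730 were lowest in CTL replicate 2, as the set was. That library also had the smallest total, at 16595196 counts. Rps10-ps2 was lowest in Usp28 KO replicate 1.

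Copies together took 0.661% and 0.523% in the Usp28 KO libraries, against 0.609% and 0.473% in the CTL libraries. How multiply matching reads were treated is not given in the sources used here, so counts of a gene and of its copies may be split, and levels of the genes named in this connection are uncertain. When the counts of the copies were added to their gene, the median log2 fold change was 0.17 for the large and 0.19 for the small subunit, Rpl24 turned to 0.10, and again 0 genes were called. Reads can also be shared with a gene in the same place. More than 50% of the principal transcript's exons lay under another annotated gene in 6 genes: Rpl24 (71.5%, Gm28037), Rpl35 (68.3%, Wdr38), Rps10 (63.6%, RPS10-NUDT3), Rpl13a (59.3%, Gm45713), Rpl23a (55.4%, Tlcd1) and Rps25 (52.2%, Trappc4).

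**Figure D5:**
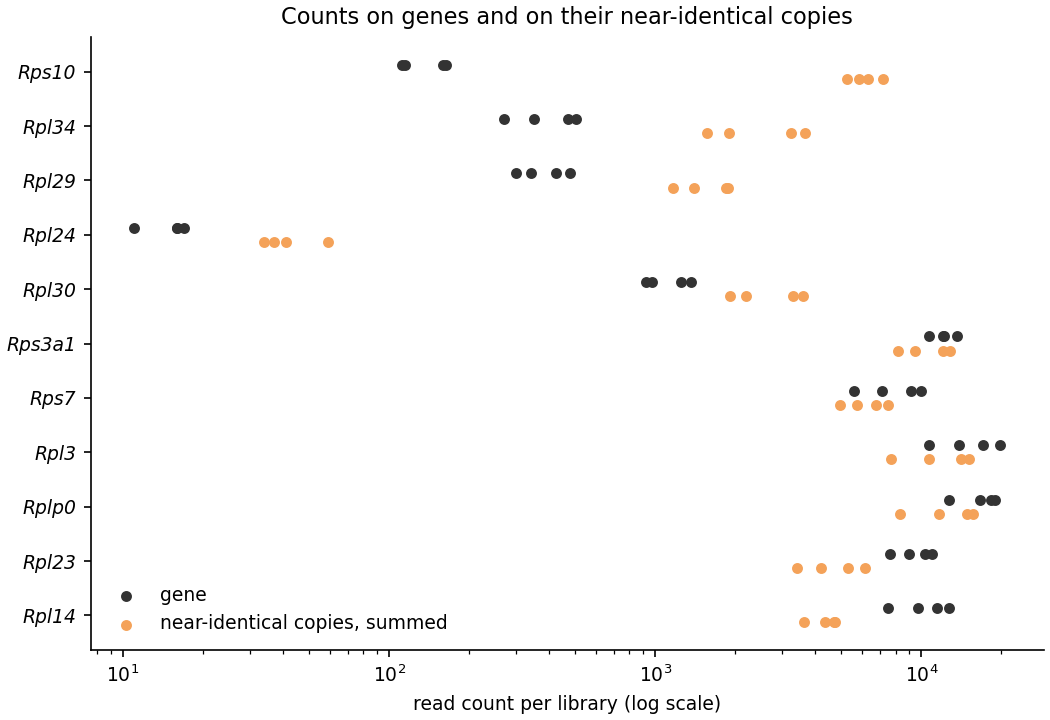
Counts on the 11 ribosomal protein genes with more than 25% of joint counts on copies, and on their near-identical copies elsewhere in the genome, on a log scale; each gene has 4 points, 1 per library of either group, and its copies, summed, have 4. Copies hold 97.8% of the joint counts for Rps10 and 86.6% for Rpl34.

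Genes tied to the same machinery were read beside the set. By edgeR 0 genes of each of these lists passed the adjusted threshold, and by DESeq2 0, and 1 gene, Akt1s1, had an unadjusted p under 0.05. Outside the naming rule, the ribosomal protein genes Rack1, a scaffold on the head of the small subunit, and Fau, which encodes a ribosomal protein fused to a ubiquitin-like protein, had log2 fold changes of 0.19 and 0.28. Rack1 had 1937 and 1756 CPM in the Usp28 KO libraries, against 1755 and 1492 CPM in the CTL libraries, with groups that did not overlap. Paralogs such as Rpl22l1, Rps27l and Rpl39l had a median of -0.064 (8 genes, 3 above 0). Rpl22l1 had 29.1 and 15.8 CPM in the Usp28 KO libraries, against 20.5 and 17.7 CPM in the CTL libraries. The 23 other TOP mRNAs, chiefly elongation and initiation factors, had a median of 0.0066, with 12 above and 11 below 0. Eef1a1, the elongation factor that delivers transfer RNA, had 13986 and 14386 CPM in the Usp28 KO libraries, against 14753 and 13489 CPM in the CTL libraries, and Eef2, the translocase, had 5549.8 and 5093 CPM in the Usp28 KO libraries, against 5116 and 4139.8 CPM in the CTL libraries; the groups overlapped in both. Npm1, a nucleolar chaperone of ribosome assembly, had 2194 and 2223 CPM in the Usp28 KO libraries, against 2729.6 and 2809 CPM in the CTL libraries, with both Usp28 KO libraries lower (log2 fold change -0.33 ± 0.18, adjusted p = 0.533, edgeR).

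Chaperones of single ribosomal proteins, listed together with factors of late subunit assembly such as Nob1, the endonuclease that matures the small subunit's RNA, had a median of -0.15 over 9 genes tested of 10, 7 of them below 0. In 4 (Heatr3, Ltv1, Nob1 and Prmt3) both Usp28 KO libraries were below both CTL libraries, where 20.4% of all genes were. Heatr3, which brings Rpl5 and Rpl11 to the nucleus, had 109 and 96.0 CPM in the Usp28 KO libraries, against 125 and 112 CPM in the CTL libraries (log2 fold change -0.20 ± 0.16, adjusted p = 0.687). Prmt3, the methyltransferase of Rps2, had 49.5 and 47.4 CPM in the Usp28 KO libraries, against 59.9 and 59.8 CPM in the CTL libraries (log2 fold change -0.30 ± 0.16, adjusted p = 0.531). Pdcd2, the chaperone of Rps2, was listed at 0 in each library. Regulators of TOP mRNA translation had a median of -0.077 (14 genes, 10 below 0). Larp1 had 422 and 493 CPM in the Usp28 KO libraries, against 473 and 493 CPM in the CTL libraries, and Mtor had 167 and 167 CPM in the Usp28 KO libraries, against 171 and 158 CPM in the CTL libraries; in neither did the groups separate. Akt1s1, an inhibitory subunit of mTOR complex 1, had 34.0 and 40.2 CPM in the Usp28 KO libraries, against 61.8 and 45.6 CPM in the CTL libraries, the 1 regulator with an unadjusted p under 0.05 (log2 fold change -0.53 ± 0.20, adjusted p = 0.332, edgeR).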

How the data were processed

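Polyadenylated RNA was sequenced from 2 Usp28 KO and 2 CTL libraries, and the authors deposited unnormalized read counts for each gene. The submitters' processing notes name HISAT2, featureCounts, DESeq2 and mm10; versions, strand setting and the handling of multiply matching reads are not given in the sources used. Totals ran from 16595196 to 19533608 counts.

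The genes, lists and tests were chosen with earlier results of these data known. Symbols came from GENCODE M21 (55141 identifiers matched without version, 260 did not). In R 4.3.3, edgeR 4.0.16 kept genes by filterByExpr (minimum count 10, minimum total 15; 15341 genes), scaled by TMM and fitted a robust quasi-likelihood model of Usp28 KO against CTL, with Benjamini-Hochberg adjustment over all genes and a threshold of 0.05. On counts simulated for these 15341 genes it recovered 56% of 50 genes changed 2-fold and 10% of those changed 1.5-fold. It also called 4 unchanged genes. The changed genes were drawn from all genes tested, and the simulated counts held no difference shared by same-numbered libraries. DESeq2 1.42.0 and limma 3.58.1 (voom), other scalings and filters, GC and length offsets, a replicate block and leaving out each library were alternatives. Genes named are the 4 with the smallest p, the 3 highest and 3 lowest per length of each subunit, and a list by role; others named were chosen after their values were seen. Near-identical copies were found by shared 50-base words. All 77 genes passed the filter; some single genes are not reported here.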

Additional observations from a re-analysis of the deposited data

How the results depend on the processing

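No ribosomal protein gene was called lower under any setting tried. The number called higher was 0 by edgeR, DESeq2 and limma-voom, 1 (Rps29) with no filter on low counts, and 0 to 1 leaving out each library (Rps29, without Usp28 KO replicate 2). The labels do not say that libraries with the same number share a batch. As a check, deviations of same-numbered libraries from their group means had r = 0.518 over 10704 genes and 0.818 over 76 ribosomal protein genes. With the replicate number as a block, 12 of 77 were called higher, against 6.29% of all genes higher and 4.67% lower, and 14 with GC offsets and the replicate block, where 5.80% of all genes were called higher and 10.0% lower.

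Over all genes the count called was 0 in the main analysis, 140 by DESeq2, 21 with upper-quartile factors, 29 with library totals, 322 with no filter, 4 with exon length offsets, 8 with copies added (chosen after seeing the data), 1681 with the replicate block and 2428 with GC offsets and the block. Leaving out each library gave 148 to 171 genes over all, 0.0089 to 0.33 for the large subunit median, -0.022 to 0.42 for the small one, and -0.092 to 0.030 for large minus small, which was 0.0075 with GC offsets and 0.0062 with the block added. Fits that leave a group with 1 library assume that it varies like the other group.

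With GC offsets and the replicate block, Rpl10a was at -0.055, Rpl29 at -0.075, Rpl41 at -0.041 and Rps6 at -0.013; with GC offsets alone they were at -0.057, -0.061, -0.043 and -0.014. With exon length offsets Rpl10a, Rplp0 and Rps6 were at -0.027, -0.0043 and -0.065, and with copies added Rpl24 was at 0.10. Leaving out each library turned the sign of 16 named genes, of which Rps14 was called with the replicate block and none in the fits that left out a library: Rpl10 (-0.11 to 0.27), Rpl10a (-0.054 to 0.14), Rpl29 (-0.17 to 0.34), Rpl3 (-0.063 to 0.46), Rpl34 (-0.14 to 0.42), Rpl39 (-0.080 to 0.67), Rpl41 (-0.053 to 0.25), Rpl8 (-0.026 to 0.57), Rplp0 (-0.054 to 0.22), Rps10 (-0.39 to 0.14), Rps14 (-0.11 to 0.84), Rps15a (-0.070 to 0.43), Rps26 (-0.44 to 0.20), Rps3 (-0.022 to 0.50), Rps4x (-0.073 to 0.25) and Rps6 (-0.041 to 0.070). The causes were not tested. Of the 77 genes 47 averaged over 500 CPM, and few counts limited the precision for Rpl24, Rps10, Rpl29 and Rpl34.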
